A study of Mus musculus with 24 samples.

Results

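Dual-specificity phosphatases, Sprouty and Spred proteins and Phlda1 form a feedback layer of the RAS-ERK pathway, and the RNA of 10 of their genes was measured in mouse C3H 10T1/2 fibroblasts. The genes are Spry1, Spry2, Spry4, Spred1, Spred2, Dusp1, Dusp4, Dusp5, Dusp6 and Phlda1. They were found by symbol among the 35260 annotated genes with an assembled transcript, and all 10 were present. Growth factor receptors switch on the kinase ERK through RAS, RAF and MEK, and ERK in turn induces genes whose products restrain the same route. Sprouty and Spred proteins act upstream, near RAS and RAF, while nuclear and cytoplasmic phosphatases remove phosphate from ERK itself or from related kinases. In muscle precursors, growth factor signalling through this route is known to favour proliferation over differentiation.

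C3H 10T1/2 is an embryo fibroblast line that the muscle transcription factor MyoD can turn into muscle-like cells. The labels give 3 lines, a wild type line and 2 clones (clone 1 and clone 2) with a knockout of the long noncoding RNA LncMyoD. Each line was untreated, infected with an adenovirus carrying MyoD, transfected with a plasmid carrying LncMyoD, or given both, with 2 libraries in each of the 12 groups. Each knockout line is a single clone, no group had an empty virus or plasmid, and the labels do not say that the 2 libraries of a group were separate cultures. All cells were kept in medium with 10% fetal bovine serum, and the labels describe a later change to 2% horse serum together with transdifferentiation. Every group carries the same description, so the labels do not say whether cells without MyoD changed medium too. Any effect of that medium and of the virus therefore cannot be told apart. P-values measure the spread between these libraries, which may be technical.

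The libraries held 2.43 to 5.93 gigabases of aligned fragments each, estimated from the ratio of coverage to FPKM. Clone 2 stood apart. The file headers give the same options and annotation for all libraries, but the gene table written beside the assembly is named differently for the 8 clone 2 libraries, so any difference in handling cannot be told apart from the line. Ribosomal RNA sequence held 2.68% to 7.90% of its TPM (a length-corrected share of all transcripts within a library), against 55.6% to 69.2% in wild type and 36.8% to 69.99% in clone 1. Its libraries had 10416 to 13253 genes at 1 TPM or more, against 4273 to 6964 in the others. Myod1, the gene carried by the virus, was at 0 to 3.76 TPM in the 12 libraries without the virus and at 929.6 to 3735 TPM in the 12 with it. With the virus, Myod1 was at 3301 to 3735 TPM in wild type, 1665 to 3641 TPM in clone 1 and 929.6 to 1222 TPM in clone 2. The lines thus differed in Myod1 level, and its part in their MyoD responses was not tested. All 10 fibroblast markers (such as Col1a1 and Vim) were at 1 TPM or more in every wild type library, and all 6 epithelial markers, Epcam and Cdh1 among them, were listed at 0 in all 24 libraries.

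Expression of the 10 genes was uneven. By named transcripts, Dusp1 and Phlda1 were above 0 in all 24 libraries and Dusp6 in 23, whereas Spry1, Spry4 and Dusp4 were above 0 in 1, 3 and 3 libraries. With transcripts that carry no gene name but lie on the same exons, Spry1, Spry4 and Dusp4 were above 0 in 5, 6 and 18 libraries. Spry2 was above 0 in 12 libraries but never over 0.862 TPM by its named transcript. A gene was tested if it had at least 1 TPM in at least 2 libraries, which 7 of the 10 passed: Spred1, Spred2, Dusp1, Dusp4, Dusp5, Dusp6 and Phlda1. Spry1, Spry2 and Spry4 did not pass. Tests used limma on log2(TPM + 1) over 16695 genes, and a gene counts as called where its p, adjusted by Benjamini-Hochberg, was under 0.05 and its log2 change was 1 or more in either direction. On the opposite strand, the gene span of Dusp1 shares 640 bases with Ergic1 and 956 with the pseudogene Gm8225. That of Dusp5 shares 547 with the antisense gene AC137853.2, and that of Phlda1 1088 with the noncoding gene Gm28592. The library kit does not mark strand, so reads from these shared stretches cannot be told apart by strand. On its own strand Dusp1 shares 1853 bases with AC122252.1 and 227 with AC122252.4. A value of 0 means that no transcript was listed, which in assembled data can be a failed assembly.

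**Figure D1:**
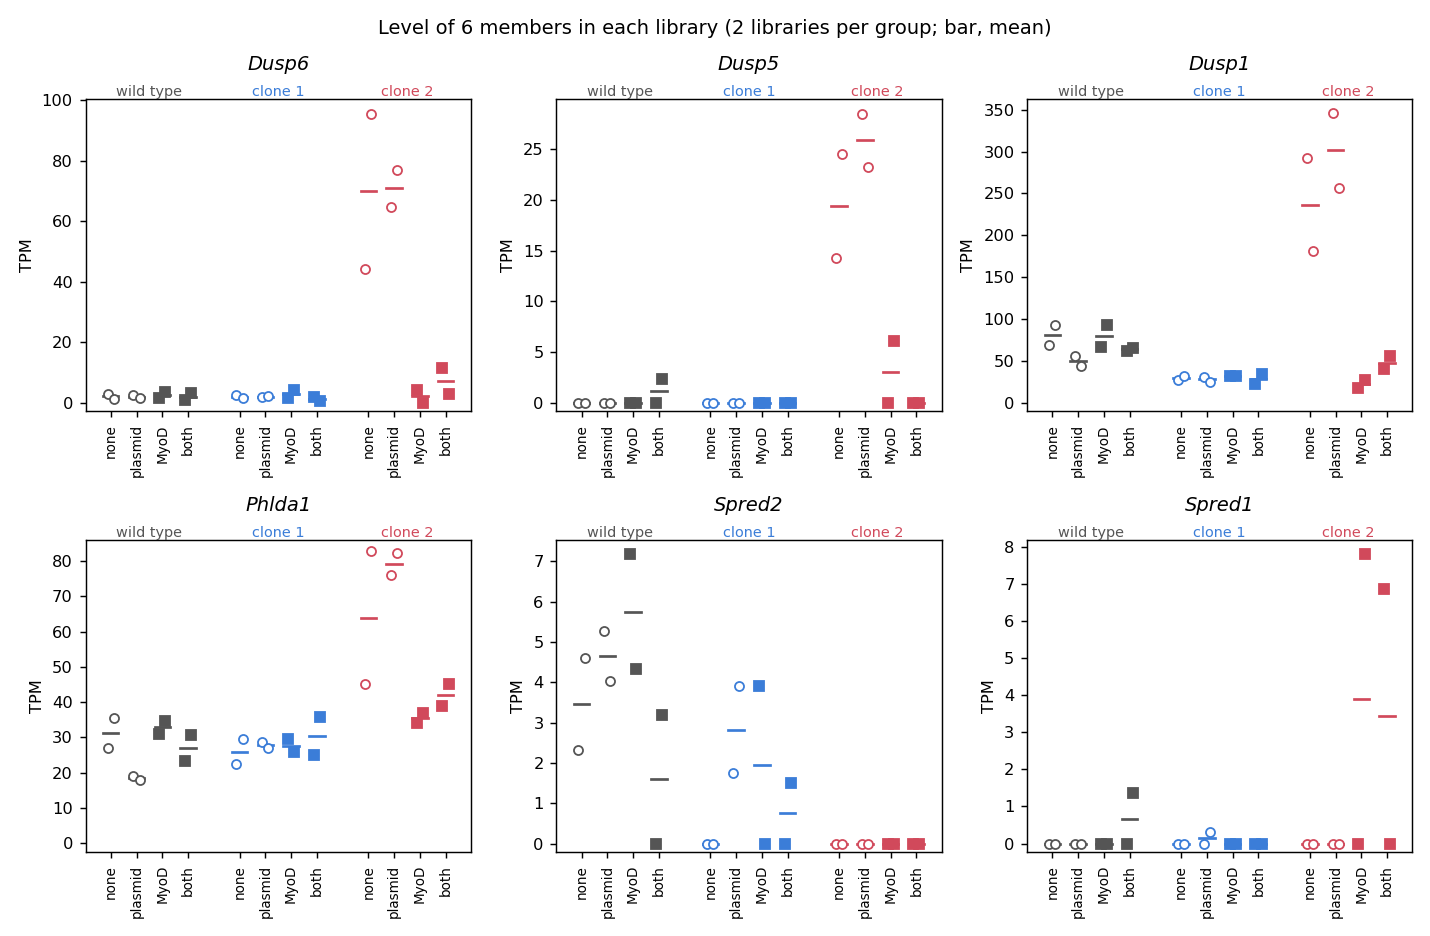
TPM of 6 members in each of the 24 libraries. Open circles are libraries without MyoD, filled squares those with MyoD, and the short bars the mean of the 2 libraries of a group. Dusp6, Dusp5 and Dusp1 were high in the 4 clone 2 libraries without MyoD and low in the 4 with it.

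Dusp6, Dusp5 and Dusp1 fell with MyoD in clone 2, and these 3 were the only called members of that comparison. Dusp6 encodes a cytoplasmic phosphatase specific for ERK (chromosome 10, 99263231 to 99267489, plus strand, build mm10). In clone 2 it was at 44.3 and 95.5 TPM untreated and at 64.7 and 76.9 TPM with the plasmid. With MyoD it was at 4.38 and 0 TPM, and with both at 11.5 and 2.87 TPM. The lowest library without MyoD was thus well above the highest with it, and the 2 arms did not overlap.

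The mean of Dusp6 was 70.4 ± 21.5 TPM (SD, n = 4) without MyoD and 4.69 ± 4.89 TPM (SD, n = 4) with it, a 15.0-fold lower level. An unnamed transcript on the Dusp6 exons was at 10.2 TPM in the library listed at 0, and with it the mean with MyoD was 7.23 ± 4.24 TPM (SD, n = 4), 9.74-fold lower. On the log2(TPM + 1) scale it fell by 4.10 ± 0.514 (SE; limma adjusted p = 3.55e-05). In wild type it ran from 0.893 to 3.51 TPM and in clone 1 from 0.720 to 4.39 TPM over all treatments, so the clone 2 libraries with MyoD lay near the range of the other lines. In these bulk samples, fewer expressing cells and less RNA per cell cannot be told apart.

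Dusp5, a nuclear ERK phosphatase (chromosome 19, 53529109 to 53542431, plus strand), had the same order of groups in clone 2. It was at 14.3 and 24.6 TPM untreated and at 28.5 and 23.3 TPM with the plasmid. With MyoD it was at 0 and 6.09 TPM, and with both it was listed at 0 in each library. The arms did not overlap, and the mean was 22.7 ± 6.0 TPM (SD, n = 4) without MyoD and 1.52 ± 3.04 TPM (SD, n = 4) with it. It fell by 3.82 ± 0.464 (SE) on the log2(TPM + 1) scale (limma adjusted p = 2.69e-05). That size depends on the treatment of low values: Dusp5 fell by 6.30 with a pseudocount of 0.1 and by 1.98 with median-of-ratios scaling.

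Dusp1 encodes a nuclear phosphatase of ERK, JNK and p38 kinases and is an immediate early gene (chromosome 17, 26505590 to 26562128, minus strand). In wild type and in clone 2 without MyoD it had the highest TPM of the 10 genes. In clone 2 it was at 293 and 181 TPM untreated and at 346 and 257 TPM with the plasmid. Cells given MyoD had 17.9 and 27.5 TPM, and cells given both had 40.1 and 55.4 TPM. Again all 4 libraries without MyoD were above all 4 with it. The mean was 269 ± 69.4 TPM (SD, n = 4) against 35.2 ± 16.2 TPM (SD, n = 4), 7.64-fold lower, and the log2 change was -2.98 ± 0.222 (SE; limma adjusted p = 1.8e-07).

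The count of 3 of 7 members stands against 17.3% of all tested genes called lower and 1.54% called higher in the same comparison, and with 7 members it is not a result about the set. Over all genes 18.1% were lower in all 4 clone 2 libraries with MyoD than in all 4 without. The median log2 change was -0.83 over the 7 members and -0.33 over all genes. Median-of-ratios scaling set the median gene to no change. It also divided clone 2 values by 3.50 to 5.73 before the filter and before 1 was added, which changes the genes tested and shrinks the changes of low genes. With it 386 genes were called lower and 279 higher in place of 2891 and 257. Dusp6, Dusp5 and Dusp1 were still called lower, at -2.82, -1.98 and -2.41. Within the plasmid-free groups the log2 changes of Dusp6, Dusp5 and Dusp1 were -4.83, -2.90 and -3.32, and within the plasmid groups they were -3.36, -4.74 and -2.64. All 3 were called in each of the 11 other settings and with each of the 8 clone 2 libraries left out in turn.

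**Figure D2:**
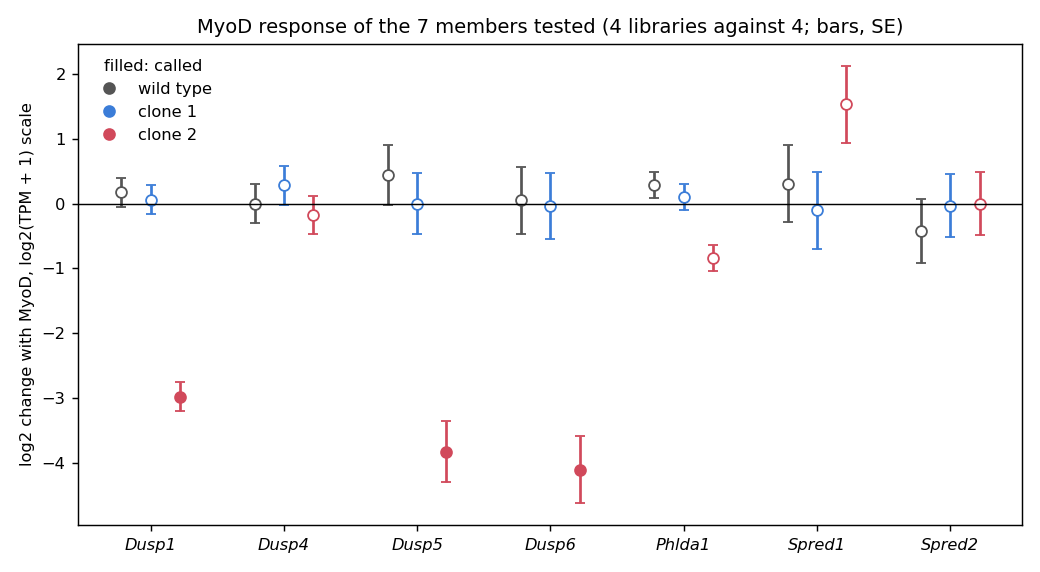
Log2 change with MyoD of the 7 members tested, on the log2(TPM + 1) scale, in wild type (grey), clone 1 (blue) and clone 2 (red). Error bars are SE from 4 libraries against 4, and filled points are called. Only Dusp1, Dusp5 and Dusp6 in clone 2 are filled, at -2.98, -3.82 and -4.10.

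The upstream sequences of these 3 genes are shown because their RNA moved together in 1 line. They come from the RefSeq promoter table (GRCm38.p6), which held 7 of the 10 genes, and run 5′ to 3′ on the gene's strand from 250 to 51 bases before the start. The start meant is the one in that table. For Dusp1 it lies inside the gene span given above and is not the outer end of that span. Capitals mark TGACG, the core that the cAMP response element holds on each strand, on either strand. The Dusp6 window is chr10:99262981-99263180 (plus strand), the Dusp5 window chr19:53528895-53529094 (plus strand) and the Dusp1 window chr17:26508523-26508722 (minus strand).
Dusp6: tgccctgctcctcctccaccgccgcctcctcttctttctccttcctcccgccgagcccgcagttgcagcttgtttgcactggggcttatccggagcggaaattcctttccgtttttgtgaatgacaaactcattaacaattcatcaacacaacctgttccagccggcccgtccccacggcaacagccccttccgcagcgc
Dusp5: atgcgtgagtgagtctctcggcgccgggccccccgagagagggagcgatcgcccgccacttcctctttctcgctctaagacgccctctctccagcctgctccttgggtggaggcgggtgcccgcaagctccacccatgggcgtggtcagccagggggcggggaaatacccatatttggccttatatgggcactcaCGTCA
Dusp1: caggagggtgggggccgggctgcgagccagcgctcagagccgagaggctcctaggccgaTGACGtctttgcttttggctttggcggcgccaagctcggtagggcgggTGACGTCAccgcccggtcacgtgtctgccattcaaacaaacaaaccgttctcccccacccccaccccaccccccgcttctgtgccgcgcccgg
Motifs were searched on both strands in the full 300 bases, which reach 50 bases past the start. Dusp1 had 1 complete cAMP response element (TGACGTCA), with its first base 143 bases before the start, which 1.79% of the 32851 promoters in the table hold. That element contains a TGACG on each strand, and another lay 191 bases before the start. Dusp5 had 1 TGACG, 55 bases before the start, and Dusp6 had none, against 20.8% of all promoters. The ETS core GGAAG was found 210 and 62 bases before the Dusp6 start and 192 before that of Dusp5, but not in Dusp1. Dusp6 and Dusp1 had an E-box (CANNTG) 191 and 126 bases before the start. These are frequent, since 71.4% of all promoters hold the ETS core and 72.3% an E-box. The E-box form CAGCTG (16.3% of promoters) and the AP-1 motif TGANTCA (7.81%) were in none of the 7 promoters. A match describes letters in this window and is no measured binding site.

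Phlda1, a pleckstrin-homology protein gene induced by growth factors (chromosome 10, 111506286 to 111508645, plus strand), was lower with MyoD in clone 2 by less than the size required. It was at 45.1 and 82.7 TPM untreated and at 76.0 and 82.1 TPM with the plasmid. With MyoD it was at 34.0 and 36.8 TPM, and with both at 39.0 and 45.1 TPM. The arms met at 45.1 TPM, the first untreated library being as low as the highest library with MyoD. The log2 change was -0.83 ± 0.199 (SE; limma adjusted p = 0.00609). Without the first untreated library it was -1.05 and called, and with median-of-ratios scaling it was -0.35.

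The Spred genes, whose products hold back RAF activation at the membrane, were low. Named Spred1 transcripts in clone 2 were listed at 0 in the 4 libraries without MyoD, at 0 and 7.80 TPM with MyoD and at 6.88 and 0 TPM with both. The log2 change of 1.53 ± 0.592 (SE) was not called (limma adjusted p = 0.0707). It was called at 2.31 without the first MyoD library and at 2.27 without the second library given both. Transcripts without a gene name on the Spred1 exons filled the zeros, and with them Spred1 was at 6.30 to 8.63 TPM without MyoD and at 5.30 to 8.52 TPM with it, so the levels overlapped. Spred2 was listed at 0 in all 8 clone 2 libraries by its named transcript. Dusp4, a nuclear phosphatase of ERK and JNK, reached 2.02 TPM at most by its named transcript. Unnamed transcripts on the Dusp4 exons reached 10.2 TPM in clone 1, 3.83 TPM in clone 2 and 1.83 TPM in wild type.

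In the other lines none of the 7 members passed the test with MyoD. In wild type, Dusp1 was at 43.9 to 92.7 TPM without MyoD and at 61.5 to 93.4 TPM with it, and Phlda1 at 18.0 to 35.4 and 23.3 to 34.6 TPM. In clone 1 the ranges were 24.7 to 32.1 and 22.3 to 34.4 TPM for Dusp1, and 22.3 to 29.6 and 25 to 35.8 TPM for Phlda1. Every pair of ranges overlapped. By limma 0 of 7 members were called in either line, and 0 had an unadjusted p under 0.05. Over all genes 0.132% of all genes were called higher and 0.018% lower in wild type, and 0.0419% higher and 0.0539% lower in clone 1. With median-of-ratios scaling 37 genes were called higher and 6 lower in wild type, in place of 22 and 3, and 132 higher and 115 lower in clone 1, in place of 7 and 9, and still 0 of the 7 members. That scaling divided clone 1 values by 0.320 to 0.442 and wild type values by 0.417 to 0.706, which enlarges the changes of low genes.

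The difference of the MyoD responses was tested directly. Between clone 2 and wild type it was -3.15 ± 0.314 (SE) for Dusp1, -4.26 ± 0.656 for Dusp5, -4.15 ± 0.727 for Dusp6 and -1.13 ± 0.281 for Phlda1. The limma adjusted p-values were 1.19e-05, 0.000635, 0.00172 and 0.0166 in the same order. Thus 4 of 7 members differed, all lower in clone 2, against 10% of all genes called lower and 0.833% called higher and a median shift of -0.35 (172 and 110 genes with median-of-ratios scaling, in place of 1671 and 139). In wild type without MyoD, Dusp5 was listed at 0. Dusp6 was there at 1.32 to 3.04 TPM untreated and at 1.55 to 2.57 TPM with the plasmid. Dusp5 thus could not fall in wild type, and Dusp6 could fall by far less than in clone 2. For these genes the test cannot tell whether wild type would have fallen from a higher level. For Phlda1 the difference was -0.61 with median-of-ratios scaling and -0.91 without the second untreated clone 2 library, and it was not called in either case. Within the plasmid-free groups Dusp5 (-2.90, limma adjusted p = 0.0901) and Phlda1 (-0.85, adjusted p = 0.267) were not called, nor within the plasmid groups Dusp6 (-3.27, adjusted p = 0.0915) and Phlda1 (-1.40, adjusted p = 0.0567). Between clone 1 and wild type 0 of 7 differed by limma, and 0 had an unadjusted p under 0.05, beside 0% of genes called higher and 0.012% lower (24 and 32 genes with median-of-ratios scaling, in place of 0 and 2).

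Without MyoD, Dusp6 and Dusp5 were higher in clone 2 than in wild type under each of 3 scalings, whereas Dusp1 and Phlda1 were higher as shares of the library and lower with median-of-ratios scaling. Untreated wild type held Dusp6 at 3.04 and 1.32 TPM and Dusp5 at 0 and 0 TPM, against the clone 2 values given above. Pooled over the plasmid, the log2 difference from wild type was 4.50 ± 0.514 (SE) for Dusp6, 4.53 ± 0.464 for Dusp5, 2.04 ± 0.222 for Dusp1 and 1.49 ± 0.199 for Phlda1, with limma adjusted p-values of 8.67e-07, 2.42e-07, 4.93e-07 and 5.05e-06. Spred2 was lower (-2.30 ± 0.488, adjusted p = 0.000534), from 2.32 to 5.27 TPM in the 4 wild type libraries to a listed 0. With unnamed transcripts added it was at 2.89 to 6.17 TPM in wild type and 0 to 4.46 TPM in clone 2, ranges that overlapped, and the difference was -1.35 (adjusted p = 0.0421). These 4 higher calls stand in a comparison where 61.9% of all genes were called higher and 1.84% lower, and where the median gene was shifted by 1.72.

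That shift follows the scaling, so the 4 genes were placed against it. After TPM was rescaled without ribosomal, Lars2 and mitochondrial transcripts the median gene was shifted by 0.70, Dusp6 by 3.45 and Dusp5 by 4.75, while Dusp1 (0.63) and Phlda1 (0.10) were not called. With median-of-ratios scaling Dusp6 (1.55) and Dusp5 (2.34) were still called higher, but Dusp1 (-1.19) and Phlda1 (-1.66) were called lower, beside 3602 genes higher and 1792 lower in place of 10335 and 307. Unnamed transcripts on the Dusp5 exons reached 13.3 TPM in wild type, and with them added Dusp5 was at 3.19 and still called. Counting the coverage of every transcript over the exons put it at 2.59 (called), and with rescaling as well at 1.48 (not called). Phlda1 was also not called within the plasmid-free groups (0.96).

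**Figure D3:**
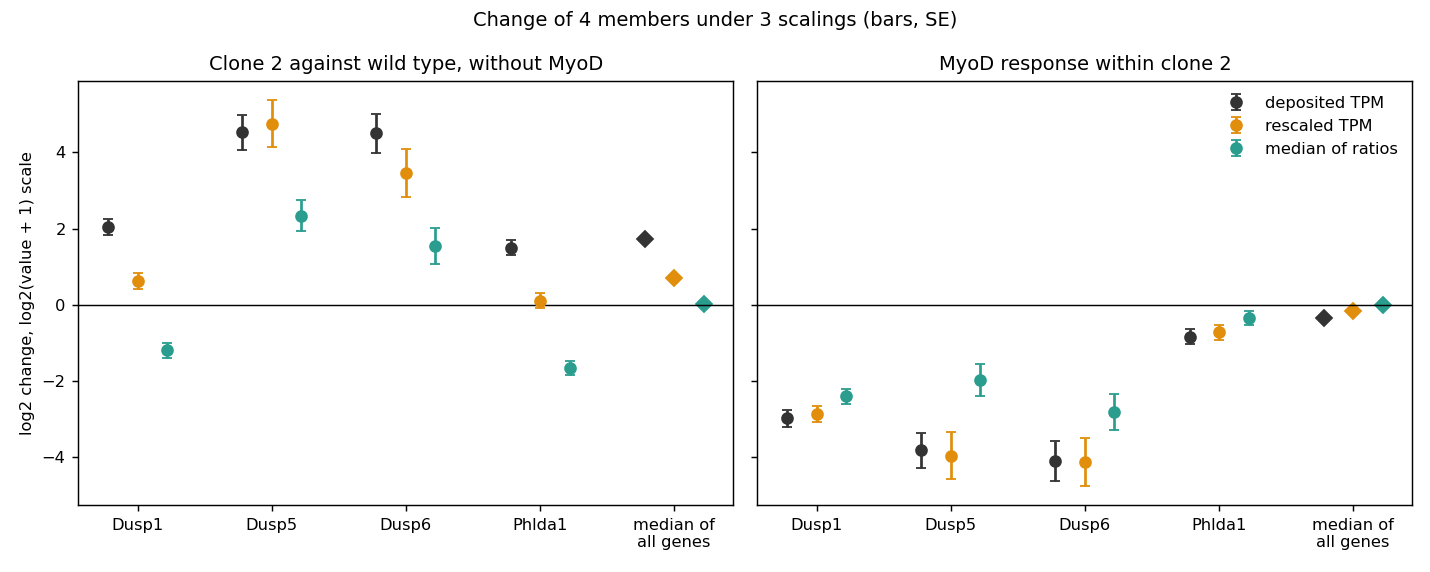
Log2 change of 4 members under 3 scalings (points with SE bars) and the median change of all tested genes (diamonds), for clone 2 against wild type without MyoD (left) and for MyoD within clone 2 (right). On the left Dusp1 and Phlda1 cross from 2.04 and 1.49 to -1.19 and -1.66, while on the right every point of the 4 genes is below 0.

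With MyoD, Dusp6 was at 0 to 11.5 TPM in clone 2 against 0.893 to 3.51 TPM in wild type, ranges that overlapped. Dusp1 was lower in clone 2 by a log2 difference of -1.11 ± 0.222 (SE; limma adjusted p = 0.000403), and Spred2 by -1.88 ± 0.488 (adjusted p = 0.00337). The 2 lower members compare with 4.07% of genes called lower and 48.2% called higher, with a median shift of 1.05. With median-of-ratios scaling the split over all genes was 2131 lower and 3664 higher in place of 680 and 8046, and Dusp6 (-1.28) and Phlda1 (-2.28) were called lower beside Dusp1 (-3.74) and Spred2 (-2.36). The share-based call of Dusp1 was lost within the plasmid groups (-0.43, limma adjusted p = 0.295), with unnamed transcripts added (-0.94) and with exon coverage (-0.83), and that of Spred2 within the plasmid groups (-1.03) and with exon coverage (-0.83). Dusp1 fell just under the required size without the second wild type MyoD library (-0.99), the first clone 2 MyoD library (-0.96) or the first clone 2 library given both (-0.99), and Spred2 was at -0.46 once unnamed transcripts were added.

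In clone 1, Dusp1 was the 1 member called against wild type in the reported fit. In other settings Dusp4 was called higher in 1 of 10 both without and with MyoD, and Dusp5 was called lower in 2 of 11 with MyoD. Dusp1 was at 26.8 and 32.1 TPM untreated against 68.6 and 92.7 TPM in wild type, and at 31.4 and 24.7 against 55.7 and 43.9 TPM with the plasmid. The 4 clone 1 libraries were below the 4 wild type libraries, by a log2 difference of -1.11 ± 0.222 (SE; limma adjusted p = 0.0074). With MyoD it was -1.23 ± 0.222 (adjusted p = 0.00271), from 22.3 to 34.4 TPM in clone 1 to 61.5 to 93.4 TPM in wild type. Over all genes 4% were called lower and 0.156% higher without MyoD, and 6.32% lower and 0.294% higher with it, and the median gene was shifted by -0.13 and -0.12. With median-of-ratios scaling these were 331 and 129 genes in place of 667 and 26, and 692 and 325 in place of 1055 and 49. The call of Dusp1 without MyoD held in 7 of the 11 other settings and that with MyoD in 9. The call without MyoD was lost, among others, after rescaling (-0.96), and both were lost with median-of-ratios scaling (-0.52 and -0.66) and within the plasmid groups (-0.81 and -1.17).

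With the LncMyoD plasmid none of the 7 members passed the test in any line by limma. The largest change was that of Dusp6 in clone 2 (0.85, adjusted p = 0.612), followed by Dusp1 in the same line (0.71, adjusted p = 0.144). At an unadjusted p under 0.05 there were 2 members in wild type, 0 in clone 1 and 1 in clone 2. Genes called higher made up 0%, 0.024% and 0.922% of all genes in wild type, clone 1 and clone 2, and genes called lower 0.00599%, 0.00599% and 0.833%. With median-of-ratios scaling the numbers higher and lower were 4 and 7 in wild type, 105 and 50 in clone 1 and 1 and 6 in clone 2, in place of 0 and 1, 4 and 1, and 154 and 139. In wild type the change was -0.50 for Phlda1 (adjusted p = 0.775) and -0.49 for Dusp1 (adjusted p = 0.861).

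Sprouty genes were almost absent by their named transcripts, whereas unnamed transcripts over Spry2 were abundant in clone 2. Spry2, an inhibitor of receptor-driven RAS signalling (chromosome 14, 105891947 to 105896819, minus strand), was between 0 and 0.652 TPM in clone 2 by its annotated transcript. Yet 7 of the 8 clone 2 libraries held a single-exon transcript without a gene name on the same strand over the second exon of Spry2. It was at 92.9 and 182 TPM untreated, at 146 and 250 TPM with MyoD, at 77.8 and 0 TPM with the plasmid and at 122 and 339 TPM with both. None was assembled in the 16 wild type and clone 1 libraries.

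These transcripts were 671 to 3476 bases long. In 2 libraries they spanned the whole coding sequence, in 1 they held 71.7% of it, and in 4 they lay past its end. Added to the named TPM, they put Spry2 in clone 2 above wild type by a log2 difference of 4.59 without MyoD and 7.35 with it, both called. The MyoD response of Spry2 in clone 2 was then 2.54 ± 0.844 (SE; limma adjusted p = 0.0442), with overlapping arms, and by exon coverage it was 1.78 (adjusted p = 0.0904). That call includes the second plasmid library, where none was assembled (0 TPM), against 77.8 to 182 TPM in the remaining clone 2 libraries without MyoD. It was not fitted without that library. Since the libraries do not mark strand and the assembly did not link these exons to the gene, the share of this RNA that belongs to Spry2 was not tested.

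**Figure D4:**
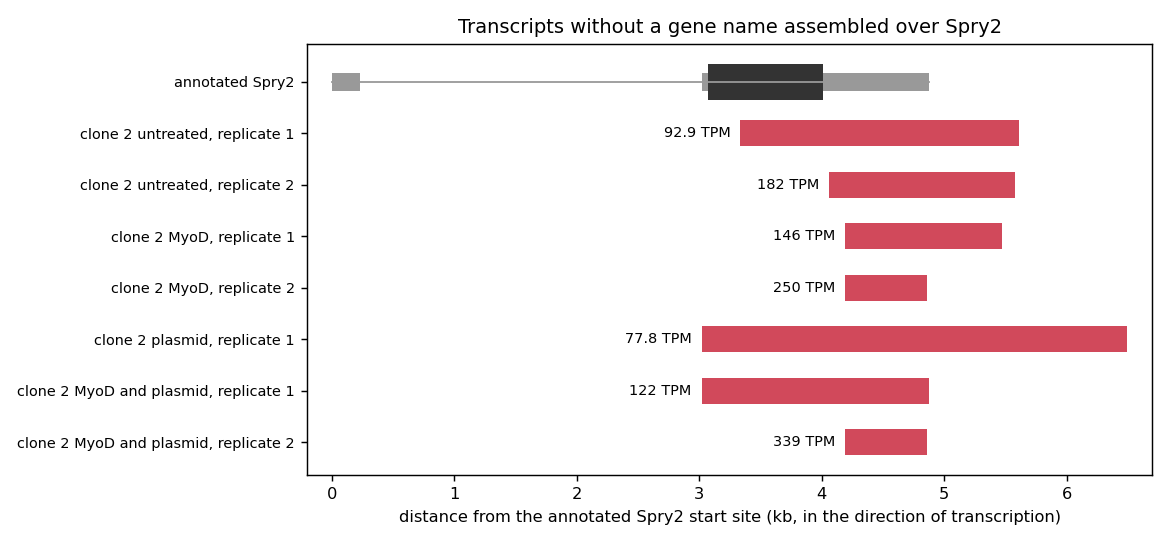
Position of the 7 single-exon transcripts without a gene name (red) assembled in clone 2 libraries, against the annotated Spry2 gene (grey exons, dark coding sequence). The axis is the distance from the annotated start site in kb in the direction of transcription, and the label of each bar is its TPM, from 77.8 to 339.

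Spry1 and Spry4, the other Sprouty genes, stayed near 0. The named transcript of Spry1 reached 0.273 TPM in 1 wild type library, and unnamed ones on its exons were at 1.51 and 1.10 TPM in untreated clone 2 and at 2.98 and 6.79 TPM in clone 2 given both. Spry4 reached 1.68 TPM in 1 untreated clone 2 library. With unnamed transcripts added, Spry4 was called higher in clone 2 than in wild type without MyoD (1.18) and Spry1 with MyoD (1.15). Both values rest on libraries at a few TPM.

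The route around these genes was read from 5 lists. Of the ERK-induced transcription factor and early genes, 13 of 14 were tested, and in clone 2 with MyoD 10 fell and 0 rose (median -2.21). The largest falls were those of the zinc finger factor Egr2, from 86.0 to 133 TPM down to 0 to 6.10 TPM (-4.87, limma adjusted p = 8.78e-07), and of the AP-1 subunit Fos, from 323 to 734 down to 13.2 to 26.6 TPM (-4.69, adjusted p = 2.71e-08). Fosb, a relative of Fos, went from 21.5 to 40.7 down to 0 to 1.62 TPM (-4.57, adjusted p = 4.4e-05). In wild type and in clone 1 0 of the 13 were called by limma, with 1 and 0 at an unadjusted p under 0.05, and the difference between clone 2 and wild type was called lower for 10. With median-of-ratios scaling 9 of the 13 fell (median -1.69), with Egr2, Fos and Fosb at -3.48, -4.03 and -2.65, and the difference was called lower for 7.

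Of 12 other Spry, Spred and Dusp genes and receptor inhibitors, 7 were tested. In clone 2 with MyoD 2 fell, the EGF receptor inhibitor Errfi1 (-1.05) and the FGF receptor inhibitor Il17rd (-1.05), and 0 rose (median -1.05), with arms that overlapped for both, which are named after their values were seen, and neither was called after rescaling or with median-of-ratios scaling. Of the 18 tested genes of the RAS-RAF-MEK-ERK cascade (20 listed), 4 fell and 0 rose (median -0.85). They were Braf, Hras, Rasa1 and Ptpn11, each with overlapping arms and named after their values were seen, and with median-of-ratios scaling 0 of 15 tested were called.

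Receptors and ligands were also lower with MyoD in clone 2 as shares of the library. With median-of-ratios scaling only 1 of 10 receptors and 0 of 9 ligands were called lower, and none of the genes named in this paragraph. That scaling divided clone 2 values by 3.50 to 5.73 before 1 was added, which by itself shrinks the changes of low genes. Its part in these lost calls was not tested. Of 9 tested receptors (12 listed) 7 fell and 0 rose (median -1.90), led by Erbb2, from 17.1 to 31.0 TPM down to 0.00229 to 8.95 TPM (-3.27, limma adjusted p = 0.000327), then Pdgfrb (-2.63) and Fgfr2 (-2.23). Of 11 tested ligands (16 listed) 4 fell and 0 rose (median -0.62), among them epiregulin, Ereg, from 6.91 to 10.4 down to 0 to 1.74 TPM (-2.96, adjusted p = 0.000625), Hgf (-1.88) and Hbegf (-1.62). Of the 58 tested genes of all 5 lists, 0 were called with MyoD in wild type or clone 1 by limma, and 4 and 2 had an unadjusted p under 0.05. All of these counts stand against the 17.3% of genes called lower given above, and nothing particular to a list is read from them.

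**Figure D5:**
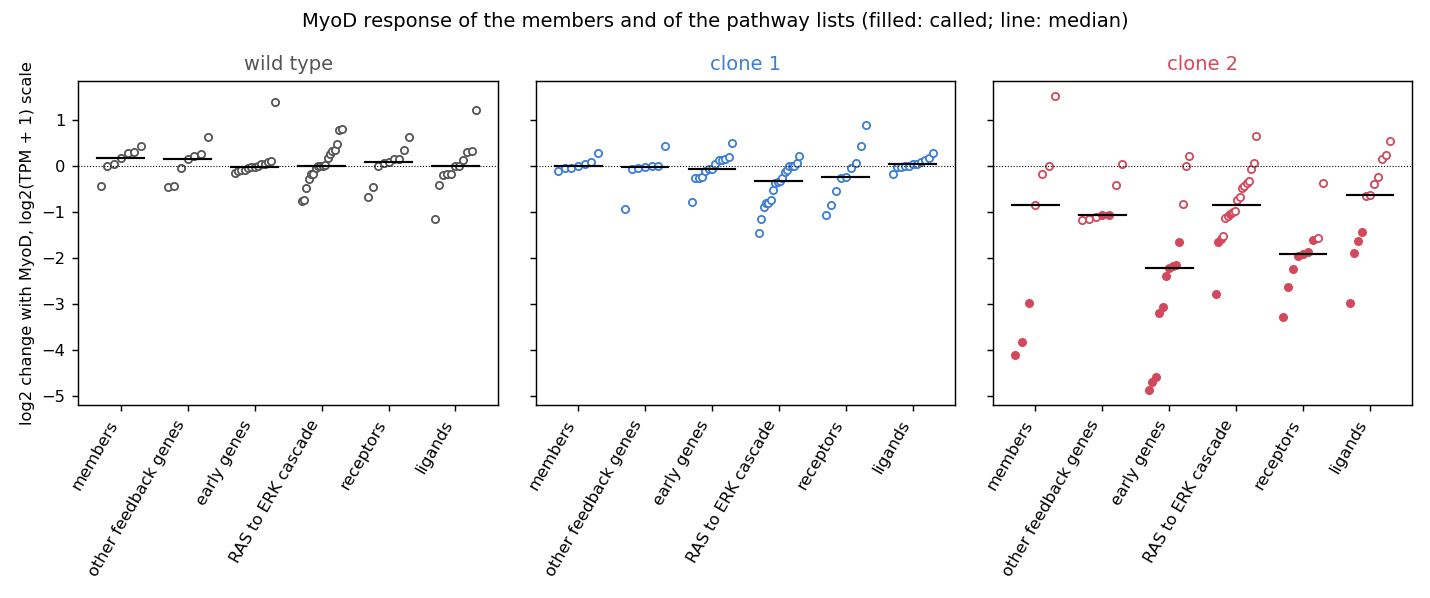
Log2 change with MyoD of the 7 tested members and of the tested genes of 5 pathway lists, in wild type, clone 1 and clone 2, on the log2(TPM + 1) scale. Filled points are called and horizontal lines are medians. Every filled point is in clone 2 and below 0, with early gene changes down to -4.87.

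Without MyoD, clone 2 also exceeded wild type in 11 of 13 early genes, 13 of 18 cascade genes, 6 of 9 receptors, 6 of 11 ligands and 4 of 7 other feedback genes, beside the 61.9% of all genes called higher. With median-of-ratios scaling the counts higher were 2 of 13, 3 of 15, 0 of 10, 3 of 9 and 1 of 7, and those lower were 2, 3, 4, 2 and 2. The largest changes were those of Junb (5.51), Nras (5.65), Igf1r (3.85), Pdgfa (4.56) and Dusp14 (4.01), which were 2.27, 3.08, 1.46, 2.03 and 1.66 with median-of-ratios scaling, that of Igf1r not called. In clone 1, the AP-1 subunit Fosl1 was called higher than in wild type, at 4.42 to 6.30 against 0.645 to 3.66 TPM without MyoD and at 3.32 to 5.93 against at most 2.51 TPM with it, also with median-of-ratios scaling (1.95 and 1.89). These were 1 of 13 early genes higher and 1 lower in each case, the latter being Egr1. Egr1 was lower than in wild type without MyoD (-1.25) and with it (-1.10), calls lost with median-of-ratios scaling (-0.65 and -0.51), and Dusp10, a phosphatase of JNK and p38, was listed at 0 in the 8 libraries of clone 1 and at 1.23 to 2.94 TPM in wild type. Of 9 receptors 2 were lower in clone 1 without MyoD and 3 with it, among them Erbb2 (-4.16 and -4.18, with median-of-ratios scaling -4.52 and -4.58). With the plasmid 0 of the 58 genes were called in any line by limma, and 6, 3 and 8 had an unadjusted p under 0.05 in wild type, clone 1 and clone 2.

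Marker levels moved with MyoD in clone 2 as well. The summed TPM of the 10 fibroblast markers was 11210 to 17310 without MyoD and 5403 to 7793 with it, and that of the 10 muscle markers 4.01 to 8.58 and 389 to 881. Of the 10 fibroblast markers 6 were called lower and 0 higher, beside 17.3% and 1.54% of all genes. The fall of the sum was not shared by all of them, since S100a4 was at 2469 to 2878 TPM without MyoD and 2597 to 3448 TPM with it. In wild type the fibroblast sum was 375 to 538 and 436 to 498 TPM and the muscle sum at most 0.0286 and 23.7 to 28.9 TPM. In clone 1 the fibroblast sum was 206 to 246 and 205 to 253 TPM, and the muscle sum was at most 1.58 and 7.19 TPM. The number of genes at 1 TPM or more in clone 2 was 12568 to 13253 without MyoD and 10416 to 10969 with it, and the mitochondrial share was 7.91% to 10.2% and 9.34% to 14%. The part of these shifts in the falls of Dusp1, Dusp5 and Dusp6 was not tested.

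Markers of other cell types were low in wild type and clone 1. The sum over 6 macrophage markers was at most 4.62 TPM in wild type and clone 1, and in clone 2 it was 38.1 to 48.2 TPM without MyoD and 9.22 to 48.7 TPM with it. Csf1r and Adgre1 were listed at 0 in all 24 libraries, but in clone 2 without MyoD Cd14 was at 33.2 to 43.4 TPM and Lyz2 at 3.91 to 4.50 TPM. Both were called higher than in wild type (4.65 and 2.39), beside 61.9% of all genes. The sum over 5 endothelial markers was 4.61 to 12.2 TPM in clone 2 without MyoD and at most 3.92 TPM in all other libraries, with Cdh5 and Kdr listed at 0 throughout. Tek was at 4.61 to 12.2 TPM in clone 2 without MyoD, called higher than in wild type (2.95), and at 0 to 3.79 TPM with MyoD, called lower (-2.38) beside 17.3% of all genes.

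Genes whose levels ran most like Dusp6 were ranked by Pearson's r of log2(TPM + 1) over the 24 libraries after the mean of each line was subtracted, among 6327 genes with a mean of at least 5 TPM. They were Ahnak (r = 0.953), a large scaffold protein, Supt16 (0.939), a histone chaperone subunit, and Atp13a1 (0.936), a transporter ATPase of the endoplasmic reticulum. In clone 2 Ahnak was at 38.9 to 86.5 TPM without MyoD and at 3.71 to 14.7 TPM with it. These values share libraries, and the spread of Dusp6 comes from clone 2, so r mainly describes the same 8 libraries. For Spry4 no likeness is given, because it was above 0 in 3 libraries.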

How the data were processed

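RNA of 24 libraries was measured, 2 in each of 12 groups (3 lines by 4 treatments), by full-length cDNA synthesis, tagmentation and paired reads of 100 nt, per the labels' protocols. StringTie 2.1.2 with GENCODE vM21 made the files per the file headers, while the notes of the submitters on processing give StringTie 1.3.3 beside HISAT2 2.1.0 on build mm10. Each deposited file lists the transcripts that the authors assembled in 1 library, with coverage, FPKM and TPM as attributes in a text column. TPM is a share of a library and was used as deposited, and the values analysed here summed to 710312 to 979898 per library. No read counts were used, so depth is known only as a total (2.43 to 5.93 gigabases) and counting error is unknown.

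TPM was summed over the transcripts named for a gene, and transcripts without a gene name (6.69% to 37.2% of TPM assigned to no gene even by overlap) entered in an alternative where at least 50% of their exonic length fell on a gene's exons on the same strand. The 16695 genes that reached 1 TPM in 2 or more libraries were tested with limma 3.58.1 in R 4.3.3 on log2(TPM + 1), with a mean-variance trend, 1 mean per group and 12 residual degrees of freedom. Fold changes on this scale understate those of low genes. For median-of-ratios scaling, values were divided by a factor per library before the filter and before 1 was added. The factors were 0.320 to 0.442 in clone 1, 0.417 to 0.706 in wild type and 3.50 to 5.73 in clone 2. Changes of low genes are thus made smaller in clone 2 and larger in the other lines. The 12 comparisons pooled over the other treatment and were adjusted separately by Benjamini-Hochberg. Calls needed an adjusted p under 0.05 and a log2 change of 1 or more in either direction. The fit was tested on simulated data. Alternatives were other scalings (TPM rescaled without ribosomal, Lars2 and mitochondrial transcripts, or median of ratios over 5091 genes), a pseudocount of 0.1, no filter, unnamed transcripts, a replicate block, only the groups compared, either of the 2 pooled pairs of groups and each library left out. Exon coverage was added after seeing the data.

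The text names the 10 members, Myod1, for each pathway list up to 3 called genes with the largest change whose arms did not overlap, and the 3 genes most like Dusp6. Errfi1, Il17rd, Braf, Hras, Rasa1, Ptpn11, Cd14, Lyz2, Tek and S100a4 fall outside that rule and were named after their values were seen. The 5 pathway lists and the fibroblast, muscle, macrophage, epithelial and endothelial markers were written from general knowledge. Members and lists were chosen with earlier results of these data known.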

Additional observations from a re-analysis of the deposited data

Results flagged for a closer look

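The MyoD response of 4 members differed between clone 2 and wild type by the test of the difference itself (limma, all p-values adjusted over 16695 genes). The difference, clone 2 minus wild type on the log2(TPM + 1) scale, was -3.15 for Dusp1, -4.26 for Dusp5, -4.15 for Dusp6 and -1.13 for Phlda1. Over all genes 10% were called lower and 0.833% higher in this comparison. In wild type without MyoD, Dusp5 was listed at 0 and Dusp6 was at most at 3.04 TPM. Wild type thus had no room to fall for Dusp5 and little for Dusp6. Phlda1 was not called in 3 of the 11 other settings. All 4 clone 2 libraries with MyoD were below the 4 without it for Dusp1, Dusp5 and Dusp6, as for 18.1% of all genes, while the wild type libraries overlapped.

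The median TPM of transcripts without a gene name, which the named TPM leaves out, was above every wild type library for 5 members. Over all tested genes this was so for 21.1% in clone 2 and 2.29% in clone 1, against 2 and 1 of the 7 tested members, and Spry1 and Spry2 were not among the tested genes. The median over the 8 clone 2 libraries was 134 TPM for Spry2, 6.41 TPM for Spred1, 6.59 TPM for Dusp1 and 0.549 TPM for Spry1, where 4 clone 2 libraries were at 0, and over the 8 clone 1 libraries it was 2.90 TPM for Dusp4. The highest wild type library held 0 TPM of such transcripts at Spry2, Dusp1 and Spry1, 1.76 TPM at Spred1 and 1.83 TPM at Dusp4.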

How the results depend on the processing

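Of 132 counts of called members under alternatives other than a left-out library, 114 stayed within 1.5 times the reported count or equal to it. The count for MyoD in clone 2 was 3 or 4 under all of them. For clone 1 against wild type without MyoD it went from 1 to 0 after rescaling, with median-of-ratios scaling and within the plasmid groups, and with MyoD from 1 to 0 in the latter 2 cases and to 2 and 3 with exon coverage before and after rescaling. For clone 2 against wild type without MyoD it went from 5 to 3 after rescaling and to 8 with unnamed transcripts added or exon coverage. With MyoD it went from 2 to 4 with median-of-ratios scaling, unnamed transcripts or exon coverage, to 5 with exon coverage rescaled, to 0 within the plasmid groups, and from 1 to 3 with 1 library left out (1 without wild type MyoD replicate 2 or clone 2 MyoD and plasmid replicate 1). For the difference of clone 2 and wild type it went from 4 to 2 within the plasmid-free and within the plasmid groups, and for the plasmid in clone 1 from 0 to 1, Spry2, with median-of-ratios scaling.

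Signs turned against wild type in clone 2: Dusp1 (-1.19) and Phlda1 (-1.66) without MyoD, and Dusp6 (-1.28) and Phlda1 (-2.28) with MyoD, under median-of-ratios scaling, and Dusp5 with MyoD under exon coverage (-1.23, rescaled -2.56). Rescaling by construction moves all genes of a library, and the median gene moved from 1.72 to 0.70 and 0.01 without MyoD. The cause of the other changes was not tested.

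Counts over all genes moved more. Across planned settings that kept all libraries they ran from 9 to 43 (reported 25), 2 to 247 (16) and 665 to 3113 (3148) for MyoD in wild type, clone 1 and clone 2, and from 104 to 871 (693) and 257 to 1540 (1104) for clone 1 against wild type without and with MyoD. They ran from 5394 to 12274 (10642) and 5795 to 10726 (8726) for clone 2 against wild type, from 1 to 56 (2) and 282 to 1753 (1810) for the response differences of clone 1 and clone 2, and from 1 to 17 (1), 0 to 155 (5) and 7 to 524 (293) for the plasmid in the 3 lines. With 1 library left out they ran from 4 to 157 for MyoD in clone 1, from 341 to 748 for clone 1 against wild type without MyoD, from 1 to 39 for the response difference of clone 1, and from 0 to 7, 2 to 99 and 361 to 659 for the plasmid.

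With the replicate number as a block (replicate block) 3 members were called for MyoD in clone 2, and no member's call changed in any comparison. Same-numbered libraries did not deviate together (r from -0.0630 to 0.0489 over 66 pairs of groups). That cannot show whether same-numbered libraries were cultured or prepared together. Read numbers are unknown, which limits what can be said of members at a few TPM.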
